A study of Mus musculus with 24 samples.

Results

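Ribosomal protein and translation factor genes were followed in mouse lung and skin after local irradiation. A gene was included where the platform annotation gave its probe a single symbol that starts with Rpl or Rps and a digit, or with Rplp, Eif or Eef. This gave 57 genes on 60 probes, out of 5908 genes with a single symbol and 8750 features tested. The rule used names only and no measured value, but it was chosen with earlier results of these data known. A further 14 probes list several symbols of which at least 1 matches, among them those for Rplp0, Rpl3, Rps2 and Rps7, and were left out.

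The irradiated groups were lungs taken 1, 12 or 72 h after 10 Gy to the thorax and skin taken 1, 12 or 72 h after 30 Gy to a hind leg, and each tissue had an unirradiated control group. Every group held 3 arrays, 1 for A/J mice, 1 for C57BL/6J and 1 for C3H/HeMs. A single array read a pool of 3 females aged 12 to 13 weeks. Replicates of a group were therefore strains, and the spread between them contained strain differences. Each pool was hybridised against a common reference mixed from commercial RNA of 10 mouse organs, with lung RNA in the Cy3 channel and full-thickness skin RNA in the Cy5 channel. Values are log2 ratios of tissue over reference, with the lung sign turned and the median of each array set to 0. A ratio says how much RNA of a gene a tissue held relative to the reference, so the ratios of different genes do not rank their abundance, and in these bulk samples fewer cells of a type cannot be told apart from less RNA per cell.

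Ribosomes are built from ribosomal RNA and ribosomal proteins of a small and a large subunit, and the acidic stalk proteins P1 and P2 recruit elongation factors to the large subunit. Initiation factors bring the initiator tRNA, the mRNA cap and the small subunit together, and elongation factors eEF1 and eEF2 deliver tRNA and move the ribosome along the mRNA. Messenger RNAs of vertebrate ribosomal proteins and of several translation factors carry a run of pyrimidines at their 5′ end, the TOP motif, through which mTOR signalling adjusts their translation. After DNA damage and other stress, cells are known to slow translation through phosphorylation of eIF2 and through eIF4E-binding proteins, steps that act on proteins and that an mRNA array does not read.

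By role, the 57 genes were 10 proteins of the large subunit, 2 stalk proteins (Rplp1, Rplp2) and 9 proteins of the small subunit, together called the 21 ribosomal proteins below. The other 36 were 2 ribosomal protein-like genes (Rpl7l1, Rpl39l), 2 symbols of ribosomal protein pseudogenes (Rpl10a-ps2, Rps19-ps3), 3 kinases whose symbols begin with Rps6ka, 23 genes with Eif symbols and 6 with Eef symbols. The Rps6ka genes encode RSK and MSK kinases and not ribosomal proteins, and Eef1akmt1 and Eef1akmt2 encode methyltransferases of eEF1A. Ribosomal protein genes have many near-identical pseudogene copies, so a probe for such a gene can take up RNA of more than 1 locus.

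The annotated start regions add a feature that the names do not give. RefSeq's promoter table (GRCm38.p6) held 42 of the 57 genes. A window of 30 bases, 15 before and 15 from the annotated start on, was searched for 8 or more C or T in an unbroken row. The strand searched was the one that reads like the mRNA. Such a run stood in the window around an annotated start of 10 of 15 ribosomal proteins (66.7%), of 7 of the 27 other members (25.9%) and of 3760 of all 27025 genes in the table (13.9%). The sequences below are shown because the results turn on these genes, with the longest run in capitals, and the last 4 have no such run.
Rps6: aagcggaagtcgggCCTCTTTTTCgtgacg
Rps26: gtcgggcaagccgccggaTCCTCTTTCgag
Rps15a: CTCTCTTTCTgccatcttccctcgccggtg
Rpl27a: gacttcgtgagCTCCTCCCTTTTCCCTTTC
Rplp2: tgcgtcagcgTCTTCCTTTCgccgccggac
Eef1a1: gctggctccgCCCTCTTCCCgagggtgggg
Rps3a1: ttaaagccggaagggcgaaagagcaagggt
Eif4a1: acaaagtaacgtcacgtcgagttgcagagc
Eif2b4: cgggacccagtgcacgccggaagttgtagt
Eef2: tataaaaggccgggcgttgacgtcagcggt
The windows lie at chr4:86857353-86857382 (minus strand) for Rps6, chr10:128626492-128626521 (minus) for Rps26, chr7:118116133-118116162 (minus) for Rps15a, chr7:109519180-109519209 (plus) for Rpl27a and chr7:141447636-141447665 (plus) for Rplp2. Those of the translation factors lie at chr9:78481710-78481739 (minus) for Eef1a1, chr11:69672409-69672438 (minus) for Eif4a1, chr5:31193125-31193154 (minus) for Eif2b4 and chr10:81176616-81176645 (plus) for Eef2, and that of Rps3a1 at chr3:86142654-86142683 (minus). A run is a description of these letters, and a window without it says only that the letters are not near this annotated start. A run can also lie wholly before the annotated start, as that of Rps15a does, and so outside the mRNA annotated there.

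The labelled tissues were checked against their markers. The median of 9 epidermal genes, Krt5 and Krt10 among them, was 4.05 to 6.27 on the skin arrays and -1.49 to -0.36 on the lung arrays. The median of 8 lung epithelial genes, surfactant genes Sftpc and Sftpd among them, was -3.90 to -2.73 on the skin arrays and 1.19 to 3.22 on the lung arrays. Scgb3a1 of this list averaged 2.10 over the skin arrays and 1.84 over the lung arrays, and the others averaged higher in lung. Skin pools also differed in muscle RNA: the median of 16 skeletal muscle genes was 1.29 in the C3H/HeMs control pool and 0.98 in its 1 h pool, against -1.58 to -0.17 on the other 10 skin arrays. Among the lung arrays, those of A/J and C3H/HeMs at 12 and 72 h stood apart, with 115 to 674 probes at a ratio of exactly 0 and 1 to 23 such probes on the other 8. No member probe was at 0 on a lung array, and on the skin arrays 1 was (Rpl21, A/J at 1 h).

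The comparison of the unirradiated tissues asks where each gene's RNA was higher. Most members were higher in control skin than in control lung. With limma across all 24 arrays, with strain as a block and Benjamini-Hochberg adjustment over the 8750 features, 46 of 57 members were higher in control skin and 1 was lower at an adjusted p of 0.05, when 35.6% of all features were higher and 22.5% were lower. All 21 ribosomal proteins were among the 46. Their median difference was 1.72, with a range of 1.35 to 2.30, against 1.35 for the other 36 members and 0.24 for all features (log2, skin minus lung).

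A limit of the arrays touches this whole comparison. Skin RNA was always in Cy5 and lung RNA always in Cy3, so a gene whose spot favours Cy5 appears higher in skin. As deposited, before the lung sign was turned, the mean Cy5 over Cy3 of all 21 ribosomal proteins, and of 43 of the 57 members, was above the array median in control skin and also in control lung, where 24.9% of all features were. Tissue and dye cannot be told apart here, and every difference between skin and lung below carries this limit.

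Rps6, the small-subunit protein whose phosphorylation is the usual readout of mTOR and S6 kinase activity, had ratios of 0.90, 0.90 and 1.34 in control skin for A/J, C57BL/6J and C3H/HeMs and of -0.44, -0.35 and -0.95 in control lung. The 3 skin pools lay above the 3 lung pools, and the difference was 1.63 ± 0.31 (SE; adjusted p = 0.00028, limma). Its 2 probes gave nearly the same values, with a correlation of 0.99 over the 12 arrays of each tissue. Rps26 was higher in skin by 2.30 ± 0.19 (adjusted p = 4.5e-08), with 1.35 ± 0.07 in control skin and -0.95 ± 0.08 in control lung (SD, n = 3 strains each), the largest difference among the ribosomal proteins. Rps15a followed with 2.25 ± 0.26, and Rps14, at 1.35 ± 0.36, had the smallest.

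Translation factors split more. All 6 measured subunits of eIF3, the large scaffold that binds the small ribosomal subunit, were higher in skin, from 1.09 ± 0.20 for Eif3d to 2.07 ± 0.19 for Eif3l. Eif4e, the cap-binding protein, averaged 0.93 ± 0.21 in control skin and -0.96 ± 0.04 in control lung (SD, n = 3 each), a difference of 1.89 ± 0.21 (adjusted p = 1.81e-06). Eif4a1, the RNA helicase of the cap-binding complex, was higher by 1.66 ± 0.18, while for its paralog Eif4a2 the difference was 0.58 ± 0.24 and missed the threshold (adjusted p = 0.0509). Eif4ebp1, the repressor that binds eIF4E, was higher by 1.12 ± 0.27 (adjusted p = 0.0017). Eif1ax, which encodes the scanning factor eIF1A, was higher by 2.03 ± 0.19, and for Eif1a, a second gene of this factor, the difference was -0.06 ± 0.26 (adjusted p = 0.856).

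The elongation factors showed the same order of tissues. Eef1a1, which delivers aminoacyl-tRNA, was higher in skin by 1.39 ± 0.34 (adjusted p = 0.00195), Eef1g, a subunit of its exchange factor, by 1.63 ± 0.31 (adjusted p = 0.000287), and Eef2, the translocase, by 0.98 ± 0.26 (adjusted p = 0.00356). Eef2 was below the reference in control lung, at -1.14 ± 0.15, and near it in control skin, at -0.16 ± 0.28 (SD, n = 3 each).

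The kinases that phosphorylate eIF2 under stress did not pass the test between tissues. The difference was -0.28 ± 0.23 for Eif2ak2 (PKR, activated by double-stranded RNA), 0.09 ± 0.22 for Eif2ak3 (PERK, of the endoplasmic reticulum) and -0.30 ± 0.27 for Eif2ak4 (GCN2, activated by uncharged tRNA), with adjusted p of 0.299, 0.745 and 0.353. The 2 probes of Eif2ak2 did not follow each other, with a correlation of -0.29 over the skin arrays and 0.32 over the lung arrays. Eif2b4, a subunit of the guanine nucleotide exchange factor of eIF2, was higher in skin by 1.75 ± 0.30 (adjusted p = 0.000117).

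The largest difference of any member belonged to a signalling kinase. Rps6ka6 (RSK4) had 2.68, 2.21 and 2.06 in control skin for A/J, C57BL/6J and C3H/HeMs and -0.14, -0.35 and -0.50 in control lung, a difference of 2.65 ± 0.19 (6.26-fold, adjusted p = 1.11e-08). Rpl10a-ps2 (2.55 ± 0.28) and Rpl39l, a paralog of Rpl39 known from mouse testis (2.48 ± 0.19), came next. Rpl39l was at 0.92, 0.39 and 0.51 in control skin and at -1.45, -2.25 and -1.91 in control lung, and Rpl7l1, the other ribosomal protein-like gene, differed by -0.30 ± 0.18 (adjusted p = 0.16). Rps6ka5 (MSK1), with -0.31 ± 0.07 in control skin and 0.09 ± 0.10 in control lung, was the member that was lower in skin (-0.41 ± 0.16, adjusted p = 0.0401). That call was lost in a fit of the 6 control arrays alone (adjusted p = 0.154). Its 2 probes correlated at 0.75 over the lung arrays and at -0.18 over the skin arrays.

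**Figure D1:**
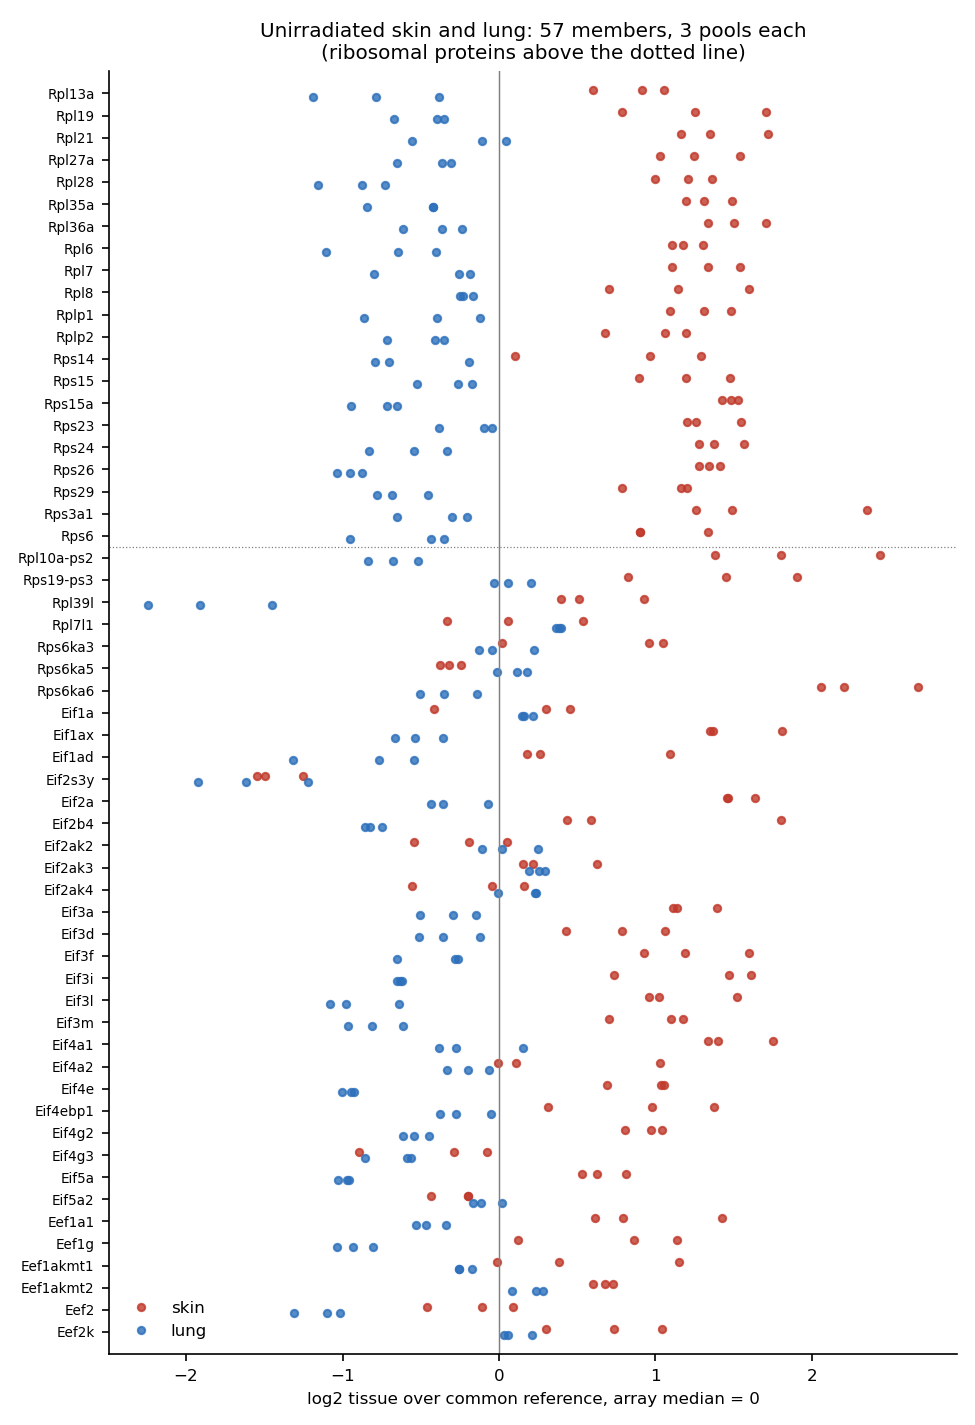
Log2 ratio of tissue over common reference (x axis, array median at 0) of the 57 members (rows, grouped by role) in unirradiated skin (red) and lung (blue), 1 point per pool of 1 strain. For Rps26 the skin points lie between 1.28 and 1.42 and the lung points between -1.03 and -0.88, and the Eif2ak kinases overlap between tissues.

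The order of the tissues held over the irradiated arrays for most ribosomal proteins. For 31 members, 15 ribosomal proteins among them, all 12 skin arrays lay above all 12 lung arrays, as they did for 18.8% of all features. Without the 4 lung arrays that stood apart, the counts were 43 members and 20 ribosomal proteins, against 24.8% of features. No member had all skin arrays below all lung arrays, which 9.92% of features had.

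Eif2s3y, a Y-linked gene for the gamma subunit of eIF2, was below the reference on all 24 arrays, between -2.24 and -1.02 in skin and between -2.55 and -0.90 in lung. All pools were from females.

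Irradiation of the lung was compared with control lung at each time, with strain as a block, to ask whether translation genes responded. No member passed an adjusted p of 0.05 at 1, 12 or 72 h, nor in the average of the irradiated times against control or in 72 h against 1 h. Few features did: 0.0114% at 1 h, 0.114% at 12 h, 0.114% at 72 h, 0.0914% over the irradiated times and 0.0229% at 72 h against 1 h. At an unadjusted p under 0.05 the counts of members were 0, 4, 2, 0 and 15 in that order of comparisons, against 2.24%, 12.1%, 12.4%, 6.59% and 12% of all features. As shares of the 57 members, 7.02% at 12 h and 3.51% at 72 h were below those of all features, and 26.3% at 72 h against 1 h was above. At 72 h against 1 h the median change of the 57 members was 0.33. It was -0.06 with the set of the 4 lung arrays that stood apart as a further block. These are A/J and C3H/HeMs at 12 and 72 h, so the block also takes up any late response of those strains. The smallest adjusted p of a member was 0.352, for Eef1akmt2 at 72 h.

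At 1 h the ribosomal proteins of the lung sat slightly below control. Their median change from the same strain's control was -0.22 for A/J, -0.08 for C57BL/6J and -0.12 for C3H/HeMs, and 21, 21 and 16 of the 21 were lower. In all 3 strains 16 of 21 ribosomal proteins were below control (76.2%), and so were 14.9% of all features. Of the 57 members 23 were below control in every strain and 5 were above, a direction that 14.6% of features had. Since these genes moved together from array to array, the 16 are not separate observations. With quantile scaling the count was 11 of 21. The lung epithelial median was 2.23, 2.61 and 1.19 at 1 h against 2.61, 2.64 and 1.32 in control lung, and its part was not tested.

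Rplp2 had the largest such shift by its smallest strain change, with -0.68, -0.51 and -0.88 at 1 h for A/J, C57BL/6J and C3H/HeMs and -0.41, -0.35 and -0.71 in control lung. Each strain's irradiated pool was lower, but the groups overlapped, and the change of -0.20 ± 0.27 did not pass (unadjusted p = 0.487). Rpl6 (-0.20 ± 0.29) and Rpl27a (-0.16 ± 0.23) were similar. Rpl7l1 went the other way, with 0.54, 0.54 and 0.74 at 1 h against 0.39, 0.39 and 0.36 in control lung. Its irradiated pools lay above all control pools, and the change was 0.22 ± 0.13 (unadjusted p = 0.116).

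At 12 and 72 h the ribosomal proteins of the lung differed between strains. Their median on the 12 h arrays was 0.07 for A/J, -0.62 for C57BL/6J and -0.01 for C3H/HeMs, and on the 72 h arrays 0.02, -0.42 and -0.11, against -0.41, -0.33 and -0.78 on the control arrays. The change at 12 h was 0.54 in A/J and 0.76 in C3H/HeMs, where 21 and 20 of 21 were higher, and -0.38 in C57BL/6J, where all 21 were lower. At 72 h it was 0.41, 0.73 and -0.09 in A/J, C3H/HeMs and C57BL/6J. The arrays with high values are the 4 that stood apart by their ratios of 0. Cell type markers differed on the same arrays. The median of the 8 lung epithelial genes was 3.22, 2.34 and 2.82 at 12 h for A/J, C57BL/6J and C3H/HeMs, and 2.90, 2.53 and 2.53 at 72 h, against 2.61, 2.64 and 1.32 in control lung. The median of 12 B cell genes was -1.17, -0.56 and -0.66 at 12 h against -0.03, -0.50 and -0.44 in control lung. The part of these cell types in the change was not tested.

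Rps6 shows this pattern. It had 0.28, -0.53 and 0.15 at 12 h for A/J, C57BL/6J and C3H/HeMs, and 0.12, -0.29 and 0.20 at 72 h, against -0.44, -0.35 and -0.95 in control lung. Eef1a1 had 0.18, -0.54 and 0.10 at 12 h against -0.53, -0.34 and -0.47 in control lung. At 12 h both were above control in A/J and C3H/HeMs and below it in C57BL/6J, and at 72 h Rps6 in C57BL/6J was 0.06 above its control.

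No ribosomal protein and 7 members were above control in all 3 strains at 12 h, where 16.8% of features were, and 1 member, Rpl7l1, was below, where 10.7% were. At 72 h, 6 ribosomal proteins and 19 members were above in every strain, where 18.4% of features were, and none was below, where 13.6% were. With the set of the 4 arrays as a further block, the median change of the 57 members was -0.18 at 12 h and -0.15 at 72 h, against 0.24 and 0.28 without this block, and no member passed in either fit. The set is A/J and C3H/HeMs at 12 and 72 h, so it cannot be told apart from a late response of those strains. With this block the change from control rests largely on C57BL/6J. Without the 4 arrays the C57BL/6J pool alone stood for 12 h and for 72 h, and the medians were -0.24 and -0.09.

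A few members were above control at the late times in every strain, C57BL/6J included. Eef1akmt2 had 0.92, 0.25 and 0.75 at 72 h for A/J, C57BL/6J and C3H/HeMs, against 0.23, 0.08 and 0.28 in control lung, a change of 0.44 ± 0.14 (unadjusted p = 0.013, adjusted p = 0.352). Eif5a, which eases the synthesis of proline-rich stretches, had -0.64, -0.64 and -0.77 at 72 h against -0.96, -0.97 and -1.03 in control lung. Its irradiated pools all lay above its control pools, with a change of 0.30 ± 0.14 (unadjusted p = 0.059). Eif4g3, a scaffold of the cap-binding complex, changed by 0.56 ± 0.25 at 72 h (unadjusted p = 0.055).

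**Figure D2:**
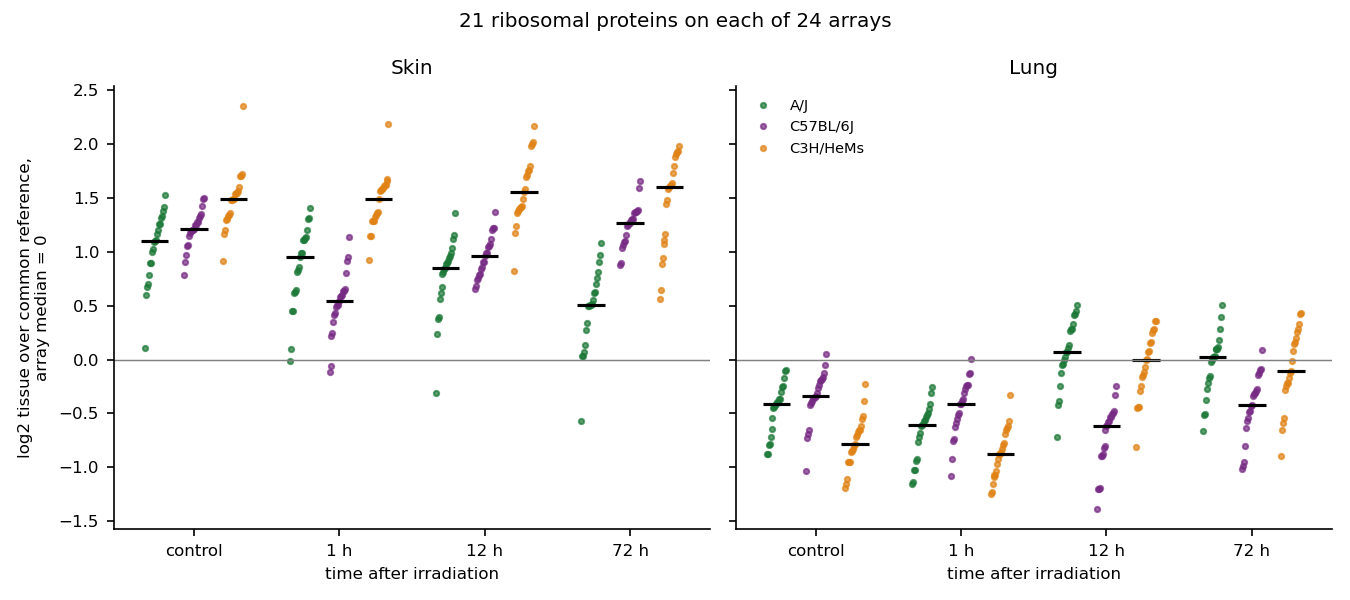
Log2 ratio of tissue over reference (y axis, array median at 0) of the 21 ribosomal proteins on each of the 24 arrays, skin left and lung right, coloured by strain and sorted within each array, with the median as a black bar. In lung the medians of A/J and C3H/HeMs at 12 and 72 h lie between -0.11 and 0.07 and those of the other 8 arrays between -0.88 and -0.33. In skin the C3H/HeMs medians lie between 1.48 and 1.60 and the A/J medians between 0.51 and 1.10.

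Irradiated skin was compared with control skin in the same way. No member passed at 1, 12 or 72 h, over the irradiated times, or at 72 h against 1 h. In each of these 5 comparisons 0% of all features passed. The numbers of members with an unadjusted p under 0.05 were 3, 2, 5, 2 and 4 (3.51% to 8.77% of the 57), close to the 4.37%, 6.71%, 7.39%, 5.52% and 8.51% of all features. The median change of the 57 members was -0.15 at 1 h, -0.12 at 12 h and -0.16 at 72 h, against -0.05, -0.03 and -0.01 for all features. These medians rest on single pools: the 12 h value was 0.0165 without the C57BL/6J arrays, and the 72 h value was -0.0168 without the A/J array of that time and -0.259 without the C57BL/6J array of that time.

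At 1 h in skin all 21 ribosomal proteins had a negative average change, with a median of -0.29, and C57BL/6J contributed most. The median change was -0.12 for A/J, -0.68 for C57BL/6J and -0.03 for C3H/HeMs, and in C57BL/6J all 21 were lower than in its control pool. In all 3 strains 12 of 21 were below control (57.1%), where 18.2% of features were. With quantile scaling the count was 18 of 21, against 13.8% of features, so it depends on the scaling. As in lung, these genes moved together and are not separate observations. The 10 members above control in every strain held no ribosomal protein, and 11% of features had that direction. Rpl35a had 1.11, 0.41 and 1.28 at 1 h for A/J, C57BL/6J and C3H/HeMs against 1.31, 1.20 and 1.49 in control skin. The C57BL/6J pool stood below the others, and the change of -0.40 ± 0.25 did not pass (unadjusted p = 0.142). Rps3a1 changed by -0.37 ± 0.23. In C57BL/6J the hair follicle median was 2.52 at 1 h against 3.79 in control skin, and the mitosis median 0.02 against 0.73. Over the 3 strains the hair follicle median ran from 1.65 to 3.48 at 1 h and from 0.27 to 3.79 in control skin. The mitosis median ran from 0.02 to 0.19 at 1 h and from -0.36 to 0.73 in control skin. The part of these cell types was not tested. Without all C57BL/6J arrays the median change of the 57 members at 1 h was 0.00175.

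At 12 h in skin, 6 ribosomal proteins and 11 members were below control in every strain, where 15.7% of features were, and 4 members were above, where 10.3% were. At 72 h, 4 ribosomal proteins and 11 members were below, where 15.4% of features were, and 4 were above, where 14.7% were. In A/J all 21 ribosomal proteins were lower at 72 h, with a median change of -0.56. On that array the median of 5 hair follicle genes was -0.60, against 3.33 in A/J control skin. The median of 21 mitosis genes was -0.29, against 0.47. In C57BL/6J and C3H/HeMs the median change of the ribosomal proteins was 0.05 and 0.09, with 13 of 21 higher in each. In C57BL/6J control skin the hair follicle and mitosis medians were 3.79 and 0.73, and at 72 h no strain exceeded 1.26 and -0.17. Both medians were thus lower at 72 h in C57BL/6J as well. The part of these cell types was not tested.

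Rps6ka6 was the member with the smallest p in skin at 72 h. It had 2.68, 2.21 and 2.06 in control skin for A/J, C57BL/6J and C3H/HeMs, 2.89, 2.57 and 2.60 at 1 h, 2.82, 2.06 and 2.64 at 12 h, and 3.19, 3.16 and 3.38 at 72 h. The 72 h pools lay above all 9 other skin pools, and the change from control was 0.92 ± 0.22 (unadjusted p = 0.0018). Adjusted over all features it did not pass (adjusted p = 0.592). In lung the same kinase stayed between -0.50 and -0.01 on all 12 arrays.

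Eif1a was above control in every strain at each time. It had 0.30, 0.46 and -0.42 in control skin for A/J, C57BL/6J and C3H/HeMs, 1.18, 1.17 and -0.17 at 1 h, 0.86, 0.98 and 0.65 at 12 h, and 0.75, 0.51 and 0.39 at 72 h. The 12 h pools lay above all control pools, with a change of 0.72 ± 0.26 (unadjusted p = 0.021, adjusted p = 0.652). Eif4ebp1 had 0.32, 0.98 and 1.38 in control skin, 0.48, 1.43 and 1.44 at 1 h, 1.26, 1.89 and 1.42 at 12 h, and 0.48, 0.60 and 0.27 at 72 h. The 12 h change of 0.63 ± 0.27 came from A/J and C57BL/6J, with 0.95 and 0.91, and C3H/HeMs moved by 0.04 (unadjusted p = 0.041, adjusted p = 0.72).

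Among the members below control in skin at 72 h were Rpl8 of the large subunit, Eef1g, Eif3i and Eif2b4. Eif3i had 0.48, 0.96 and 0.22 at 72 h for A/J, C57BL/6J and C3H/HeMs against 0.74, 1.61 and 1.47 in control skin. The groups overlapped, and the change was -0.72 ± 0.33 (unadjusted p = 0.055). Rpl8 changed by -0.65 ± 0.26 and Eef1g by -0.69 ± 0.28, with the largest step in C3H/HeMs, -1.04 and -1.03. In that strain the skeletal muscle median was -1.09 in the 72 h pool and 1.29 in the control pool, and its part in the change was not tested.

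Eif5a in skin had 5.19 on the A/J array at 72 h and 0.23 to 1.23 on the other 11 arrays. On that array 20 of 8750 features were above their own control by more than Eif5a's 4.56. The average change at 72 h was 1.54, and -0.04 without that array. The same array widens the error of Eif5a in the comparison of tissues, where its difference of 1.64 ± 0.71 had an adjusted p of 0.0556, and of 2.12e-05 without the array.

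**Figure D3:**
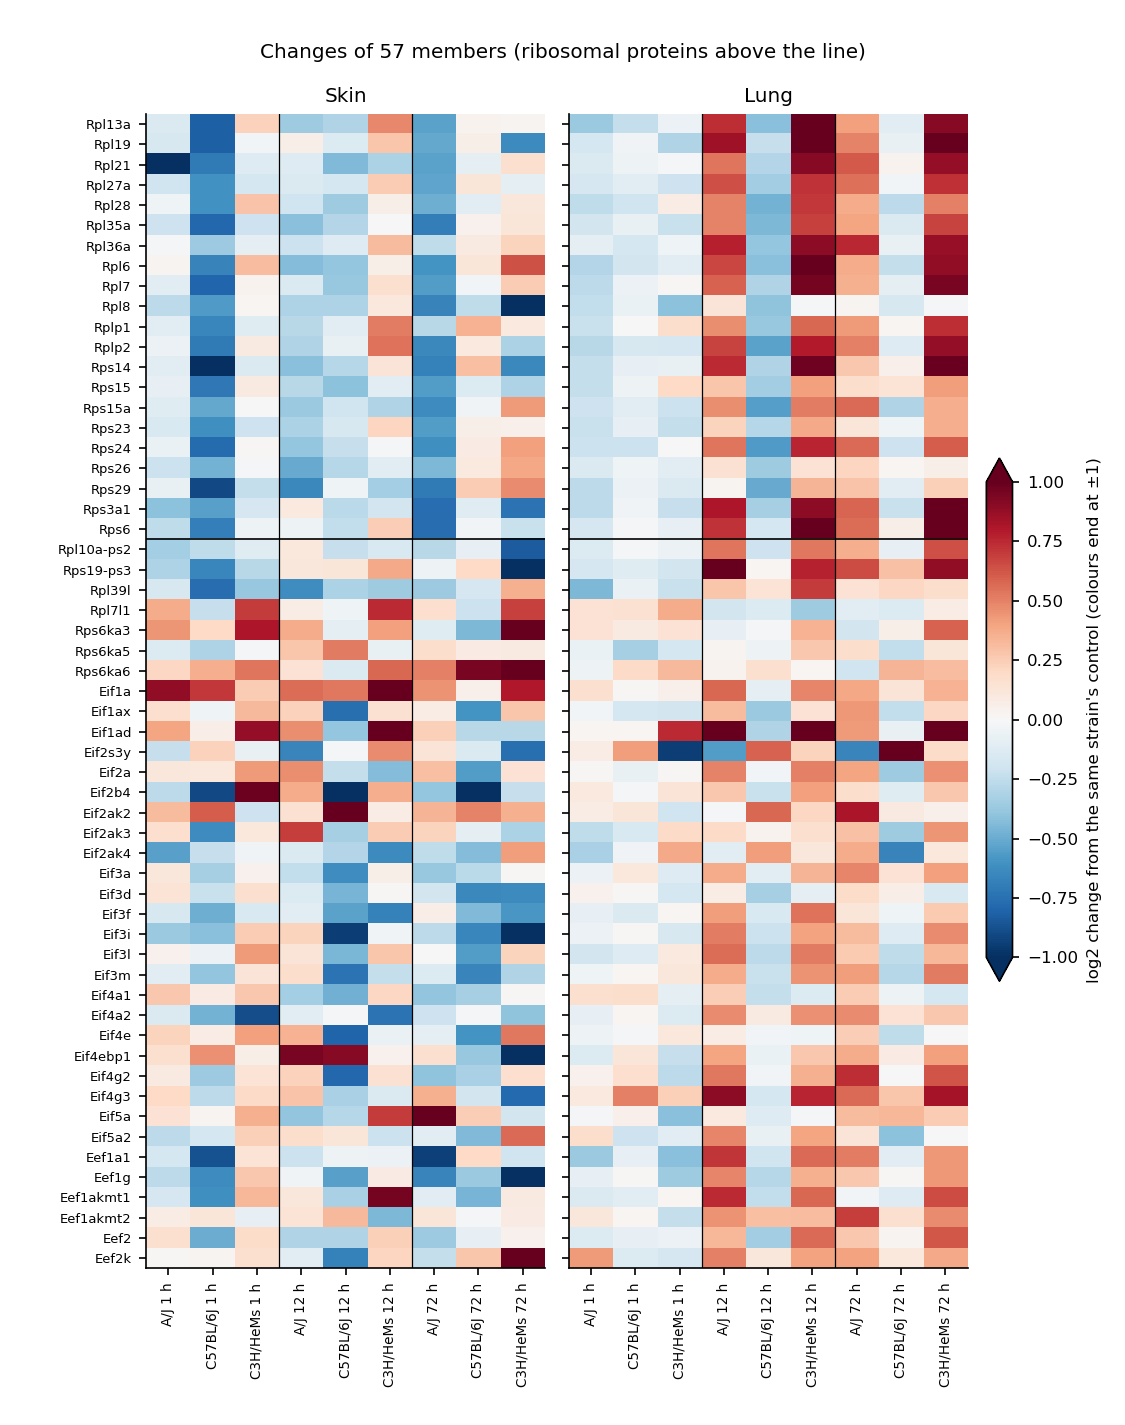
Log2 change from the same strain's unirradiated pool (colour, red higher and blue lower, ending at ±1) of the 57 members (rows, ribosomal proteins above the line) for each strain and time (columns), skin left and lung right. In lung the red columns are A/J and C3H/HeMs at 12 and 72 h, and C57BL/6J at 12 h is blue for all 21 ribosomal proteins.

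**Figure D4:**
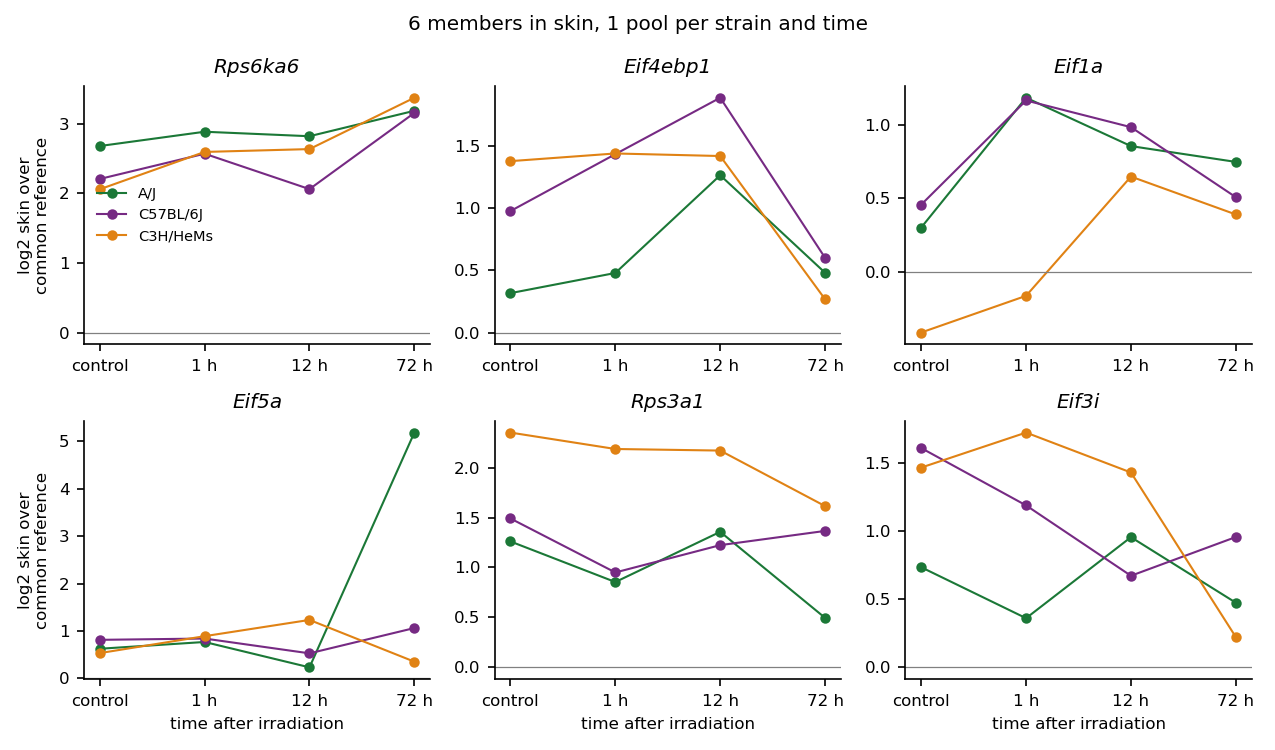
Log2 ratio of skin over reference (y axis, with its own scale per panel) of 6 members against time after irradiation (x axis), 1 line per strain and 1 pool per point. Rps6ka6 is at 3.16 to 3.38 at 72 h in the 3 strains, and Eif5a is at 5.19 in A/J at 72 h.

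The response in skin was set against the response in lung with 24 arrays in 1 fit. No member differed at 1, 12 or 72 h, and 0% of features did at each time. The median difference of the 57 members, skin response minus lung response, was -0.04 at 1 h, -0.36 at 12 h and -0.44 at 72 h. The 12 and 72 h values rest on the 4 lung arrays that stood apart: without those arrays they were 0.19 and -0.07.

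Strains were compared within each tissue over the 4 arrays of each strain. In skin, the median of the ribosomal proteins was 1.48 to 1.60 on the C3H/HeMs arrays, 0.54 to 1.27 on the C57BL/6J arrays and 0.51 to 1.10 on the A/J arrays. For 16 of the 21 all 4 C3H/HeMs arrays lay above all 4 A/J arrays (76.2%), and for 20 of the 57 members, where 3.33% of all features did. For no ribosomal protein and 5 members all C57BL/6J arrays lay above all A/J arrays, as for 5.87% of features. By limma's F-test over the 3 strains, no member passed an adjusted p of 0.05 and 0.377% of features did, while 25 members (43.9%), 17 of them ribosomal proteins, had an unadjusted p under 0.05, against 19.1% of features. The ribosomal proteins moved together over the skin arrays, with a median pairwise correlation of 0.83, so these counts are not of separate observations.

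Rps3a1, a small-subunit protein, had the smallest strain p in skin. It had 2.35, 2.19, 2.17 and 1.61 in C3H/HeMs in control skin and at 1, 12 and 72 h, 1.49, 0.95, 1.22 and 1.37 in C57BL/6J, and 1.26, 0.85, 1.36 and 0.50 in A/J. Every C3H/HeMs pool was above every pool of the other strains (unadjusted p = 0.000896, adjusted p = 0.0818). Rps14 averaged 1.13 ± 0.34 in C3H/HeMs, 0.72 ± 0.57 in C57BL/6J and -0.20 ± 0.30 in A/J (SD over 4 arrays each). Rpl10a-ps2 averaged 2.16 ± 0.38, 1.66 ± 0.12 and 1.25 ± 0.21 in the same order.

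The C3H/HeMs control and 1 h pools were those with high muscle genes. Without the control and 1 h arrays of both strains, all 21 ribosomal proteins were higher on the C3H/HeMs arrays than on the A/J arrays, against 13.4% of features. With those arrays alone 17 were, against 26.4%. Both splits were chosen after the data were seen. They leave fewer arrays per strain, so such an order is reached more easily. The skeletal muscle median at 12 and 72 h was -1.50 and -1.09 in the C3H/HeMs pools, with 1 and 2 of the 16 genes above 0, and -1.16 and -1.33 in the A/J pools, with 7 and 5 above 0. The part of muscle RNA in the strain difference was not tested. Each pool mixed mice of 1 strain and was measured once, and strain and the handling of its pools cannot be told apart.

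In lung no member passed the F-test over strains, when 2.95% of features did, and 6 (10.5%) had an unadjusted p under 0.05, against 23.7% of features. Rpl39l came nearest. It averaged -2.18 ± 0.12 in C57BL/6J, -1.75 ± 0.39 in C3H/HeMs and -1.46 ± 0.32 in A/J (SD over 4 arrays each), with an adjusted p of 0.0538. With the test run over genes with a symbol alone, the adjusted p was 0.0441.

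The ribosomal proteins moved together from array to array in both tissues. The median correlation between pairs of the 21 genes was 0.83 over the 12 skin arrays and 0.87 over the 12 lung arrays, and 0.77 over the 8 lung arrays that did not stand apart. The other 36 members had 0.05 in skin, 0.52 in lung and 0.05 on those 8 lung arrays, and the mean over all pairs of features was 0.01 in skin and 0.02 in lung. These are descriptions over arrays that share a reference, a dye orientation and a centring.

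The genes most like Rps6 over the skin arrays were Naca (0.96), a subunit of the nascent-polypeptide-associated complex, Eef1a1 (0.96) and Rpl27a (0.94), and 16 of its 50 nearest genes were members. Over the lung arrays they were Rpl7 (0.99), Enah (0.98) and Rpl21 (0.98), with 12 members among the 50. Rps6ka6 stood away from this group, with Bmp1 (0.88), Septin8 (0.87) and Endod1 (0.86) nearest in skin and 1 member among its 50 nearest genes. Eef2 in lung was nearest to Rplp2 (0.98).

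Other genes of the translation machinery were read beside the members. In control skin against control lung, 35.6% of all features were higher and 22.5% were lower. Of 28 mitochondrial ribosomal proteins 23 were higher and none was lower, with a median difference of 1.08. Of 8 aminoacyl-tRNA synthetase genes, which charge tRNAs, 7 were higher (median 1.05), and of 21 genes of ribosome assembly and the nucleolus 13 were higher and 2 lower (median 0.84). Of 8 further genes (a ribosomal protein under another name, release factors, poly(A)-binding and related proteins) 6 were higher, of 13 genes of the mTOR and growth factor input 10 were higher, and of 12 targets of the integrated stress response 7 were higher and 1 was lower. All of these medians, from 0.83 to 1.10, lay below the 1.72 of the ribosomal proteins and above the 0.24 of all features. In no irradiation comparison did a gene of these 6 lists pass. At 72 h in skin their median changes ran from -0.39 (the synthetases) to -0.19, and at 72 h in lung from -0.06 (the stress response targets) to 0.35.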

How the data were processed

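Each of the 24 arrays was deposited as log10 of Cy5 over Cy3 for 9275 probes, limited to ±2 and made with Agilent Feature Extraction per the submitters' processing notes; its version and settings are not given in the sources used here. The lung sign was turned because lung RNA was labelled with Cy3, per the labels. Ratios were put on the log2 scale, centred on each array's median and averaged over the probes of a gene (6433 probes with 1 symbol, 381 with several, 2461 with none; annotation symbols checked against RefSeq). limma 3.58.1 in R 4.3.3 was fitted over all 8750 features, on the 12 arrays of a tissue or on all 24, with strain as a block, and p-values were adjusted by Benjamini-Hochberg. The fit was tested on simulated data. Strain is given by the labels and carries the replicate number. Correlations of same-strain deviations from the group means ran from -0.05 to 0.71 in lung and from -0.05 to 0.68 in skin. Arrays give no read depth, and their number limits the precision. The labels do not say whether pools were independent beyond strain, so p-values measure the spread between these pools.

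The members and gene lists were chosen with earlier results of these data known. Members described singly are those with the largest change by the smallest strain change, the highest or lowest control ratios, the largest tissue differences, the smallest strain p, and a set of well-known factors. Eif1ax and Eif3l were added after their values were seen. Alternatives were no strain block, only the groups compared, no centring, quantile scaling, ratios of 0 or at the limit as missing, single probes, genes with a symbol, the 4 lung arrays blocked or left out, and each array or strain left out.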

Additional observations from a re-analysis of the deposited data

How the results depend on the processing

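The counts of members past the threshold stayed within 1.5 times the reported ones in 406 of 408 alternatives. Control skin against control lung was the only comparison with a reported count above 0. In all others a count that stayed at 0 was taken as within this range, so most of the 406 say little about stability. In the strain test, genes with a symbol alone gave 1 member in lung (Rpl39l), and without the C3H/HeMs skin array of 12 h 1 member passed in skin (0 to 1 over arrays left out). Control skin against control lung gave 42 to 48 members over arrays and strains left out, and 45 without the strain block, against 47 with it; the block changed no other count of members by over 1.5 times. The medians of members moved by less than the spread between strains (SD of the strain medians) in 356 of 372 alternatives. This spread could exceed the median itself, as for lung at 12 h, with 0.3963 against 0.24. A median could thus change sign and count as unmoved, as for skin at 12 h, with 0.0165 without the C57BL/6J arrays against -0.12. With the 4 lung arrays as a block the medians of members were -0.1825 at 12 h, -0.1507 at 72 h, -0.05768 at 72 h against 1 h and -0.1192 over the irradiated times, and the differences of skin and lung responses 0.09614 at 12 h and 0.01072 at 72 h. Without these arrays they were -0.2405, -0.09239 and -0.1192 at 12 h, 72 h and over the irradiated times, and 0.1945 and -0.07175 for the differences. The 4 arrays are A/J and C3H/HeMs at 12 and 72 h, so their set cannot be told apart from a late response of those strains. The lung 1 h median ran from -0.2273 (without C57BL/6J at 1 h) to 0.04809 (without the C57BL/6J control). The cause was not tested, beyond the 4 arrays named. The counts of ribosomal proteins by direction under other scalings and without doubted arrays were alternatives chosen after seeing the data.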
